A study of Mus musculus with 16 samples.

Results

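Suv39h1, Suv39h2, Setdb1, Setdb2, Ehmt1 and Ehmt2, which encode enzymes that methylate lysine 9 of histone H3 (H3K9), were measured together with Trim28, Atf7ip and Wiz, which encode proteins that recruit, stabilize or assist these enzymes. The 9 genes were taken by their symbols from the 56748 genes of the deposited tables, and all 9 had enough counts to be tested. The RNA-Seq data come from splenic memory T cells, sorted by surface markers as CD4+ cells with low or no CD25 and high CD44, with 16 samples in 4 groups of 4. The study asked what the heterochromatin proteins HP1α and HP1γ control in T cells, and the H3K9 methyltransferases produce the mark that both proteins read.

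In the HP1α line, KO mice were homozygous for an Hp1a allele whose floxed part had been excised by a CMV-cre transgene. The excision is therefore not limited to T cells, and the WT mice were littermates from crosses of heterozygotes. In the HP1γ line, KO and WT littermates were all homozygous for a floxed Hp1g allele and KO mice also carried Cd4-cre, which is active from thymocytes onward in the T lineage. The WT mice of this line had no Cre, so that an effect of Cd4-cre itself cannot be told apart from one of the missing HP1γ. Both lines had a mixed 129/Sv x C57BL/6 background, and the study compared littermates of the same sex aged 6 to 12 weeks. It stated that male mice were used for its sequencing. The WT groups of the 2 lines thus differed in descent and in the floxed allele, and the labels name no batch of sorting or sequencing, so that line and batch cannot be told apart. The samples are separate samples by their labels, and p-values measure the spread between these samples, which may be in part technical.

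H3K9 methylation marks silent chromatin. SUV39H1 and SUV39H2 are paralogs that trimethylate H3K9, mainly at pericentromeric repeats, and their product is the docking site of the HP1 chromodomain. SETDB1 trimethylates H3K9 at retroelements and at some genes, where TRIM28 (KAP1) brings it to the binding sites of KRAB zinc finger proteins and ATF7IP keeps it in the nucleus and protects it from degradation. G9a (Ehmt2) and GLP (Ehmt1) form a heterodimer that deposits most mono- and dimethylation of H3K9 in euchromatin, and WIZ stabilizes this complex on chromatin. In T cells, SUV39H1, G9a and SETDB1 are known for the silencing of genes of the alternative T helper lineages.

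The total of estimated counts ranged from 26694045 to 40199637 per sample. Levels in CPM are counts scaled to a common library size, normalized over the 16 samples and not scaled by gene length, and adjusted p are Benjamini-Hochberg values over all genes tested. Cbx3, which encodes HP1γ, was lower in HP1γ KO than in WT samples (log2 fold change -0.82, adjusted p = 0.00150 by the quasi-likelihood test of edgeR). Cbx5, which encodes HP1α, had 27.3 ± 2.88 CPM in HP1α KO samples against 40.6 ± 9.52 CPM in their WT littermates (SD, n = 4 each). These samples did not overlap, but the gene missed the threshold (log2 fold change -0.58, adjusted p = 0.946 with edgeR). In the HP1γ line, Cbx5 was at 25.1 ± 4.81 CPM in KO and 31.3 ± 4.95 CPM in WT samples (SD, n = 4 each). The RNA level of Cbx5 therefore does not set the HP1α KO samples apart. The study reported that HP1α protein was absent from naive CD4+ T cells of the HP1α KO mice. Every sample expressed the T cell markers Cd3e, Cd3d, Cd4 and Trac (1017 to 1367 CPM for Cd4) and the memory marker Cd44 (258 to 377 CPM). The CD8 marker Cd8a did not exceed 7.38 CPM in any sample. The regulatory T cell marker Foxp3 ranged from 57.6 to 163 CPM, the hemoglobin transcript Hbb-bs from 6.19 to 419.65 CPM and the naive cell marker Ccr7 from 139 to 379 CPM. Since these are bulk samples, fewer cells of a type and less RNA per cell cannot be told apart.

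The sequences just upstream of the canonical transcripts of 3 of the genes whose levels differed between the lines are shown here. They were chosen because Setdb1 and Atf7ip were higher and Suv39h2 was lower in the WT samples of the HP1α line (values are given further on). The Atf7ip stretch lies inside the annotated gene, which starts further upstream. Each stretch was read from the mouse genome GRCm39 within the 250 bases before the start of the gene's canonical GENCODE transcript, without the bases that the annotation assigns to exons of protein-coding genes. It is written from 5′ to 3′ on the strand of the gene, and capitals mark matches on either strand to short motifs. The motif of SP/KLF factors was searched as GGGCGG. That of ETS factors was searched as CCGGAAG. That of E2F factors was searched as GCGGGAA. The CCAAT box was searched by its own letters.
Suv39h2 (chr2:3476147-3476335, minus strand): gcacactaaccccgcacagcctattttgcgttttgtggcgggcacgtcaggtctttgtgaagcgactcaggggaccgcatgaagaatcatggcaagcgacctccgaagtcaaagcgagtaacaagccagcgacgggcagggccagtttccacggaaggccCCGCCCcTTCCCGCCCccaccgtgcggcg
Setdb1 (chr3:95264542-95264784, minus strand): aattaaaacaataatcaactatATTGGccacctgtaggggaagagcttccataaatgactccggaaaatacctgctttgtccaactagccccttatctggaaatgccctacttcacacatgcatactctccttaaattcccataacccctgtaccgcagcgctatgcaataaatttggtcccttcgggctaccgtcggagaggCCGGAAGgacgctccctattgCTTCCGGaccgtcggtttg
Atf7ip (chr6:136495535-136495784, plus strand): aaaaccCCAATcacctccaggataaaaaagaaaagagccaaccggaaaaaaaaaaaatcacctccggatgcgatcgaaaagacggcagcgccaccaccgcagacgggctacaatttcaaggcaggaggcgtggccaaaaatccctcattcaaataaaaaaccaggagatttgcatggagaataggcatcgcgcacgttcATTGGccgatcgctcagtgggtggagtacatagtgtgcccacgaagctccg

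In the Suv39h2 stretch, the SP/KLF motif was found 2 times and the E2F motif 1 time, and the latter match overlaps one of the former. The Setdb1 stretch held the ETS motif 2 times, in both orientations, and the CCAAT box 1 time. The Atf7ip stretch held the CCAAT box 2 times. The TATA box, the NRF1 motif and the cAMP response element (TGACGTCA) were also searched and had no match in the stretches shown. The last of these occurred 1 time in the 250 bases before Suv39h2, in the part not shown, and in 1.69% of the background described next. Among the 250 bases before the start of 21770 protein-coding genes, the SP/KLF motif was present in 36.3%, the CCAAT box in 36.5%, the ETS motif in 6.89% and the E2F motif in 4.65%. A match describes the letters and does not show that a factor binds there. The 250 bases before Suv39h2 contained 25 CpG dinucleotides, against a median of 8 over all these genes, while those before Setdb1 and Atf7ip contained 12 and 16. The stretches shown for Setdb1 and Atf7ip also lie in annotated non-coding transcripts of the opposite strand.

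In WT memory T cells, the transcript level per length (TPM, as deposited by the authors) spanned more than an order of magnitude among the 9 genes. Trim28 had the highest level, with 203 ± 17.97 TPM (SD, n = 8 WT samples of both lines), followed by Ehmt2 with 160.1 ± 21.2 TPM. Of the 4313 exonic bases of Trim28, 2923 overlap those of Chmp2a on the opposite strand. Whether the counting used the strand is not given, so reads of Chmp2a may enter the level of Trim28 or the reverse. Atf7ip came next with 75.1 ± 14.3 TPM. Trim28 exceeded Ehmt2 in all 8 WT samples, although the ranges of both genes over the 8 samples overlapped, and neither Ehmt2 and Atf7ip nor Atf7ip and the next gene overlapped in range. Ehmt1, the partner of Ehmt2, was at 34.3 ± 3.78 TPM and Wiz at 29.5 ± 6.09 TPM. Their ranges overlapped, as did those of Wiz and Setdb2 (20.2 ± 2.31 TPM), Setdb2 and Setdb1 (18.2 ± 2.93 TPM), and Setdb1 and Suv39h1 (16.1 ± 1.11 TPM). Suv39h2 had the lowest level, 4.69 ± 1.77 TPM, below Suv39h1 in all 8 WT samples. Ehmt2 thus had the highest level of the 6 methyltransferase genes, and its range did not overlap that of its partner Ehmt1.

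**Figure D1:**
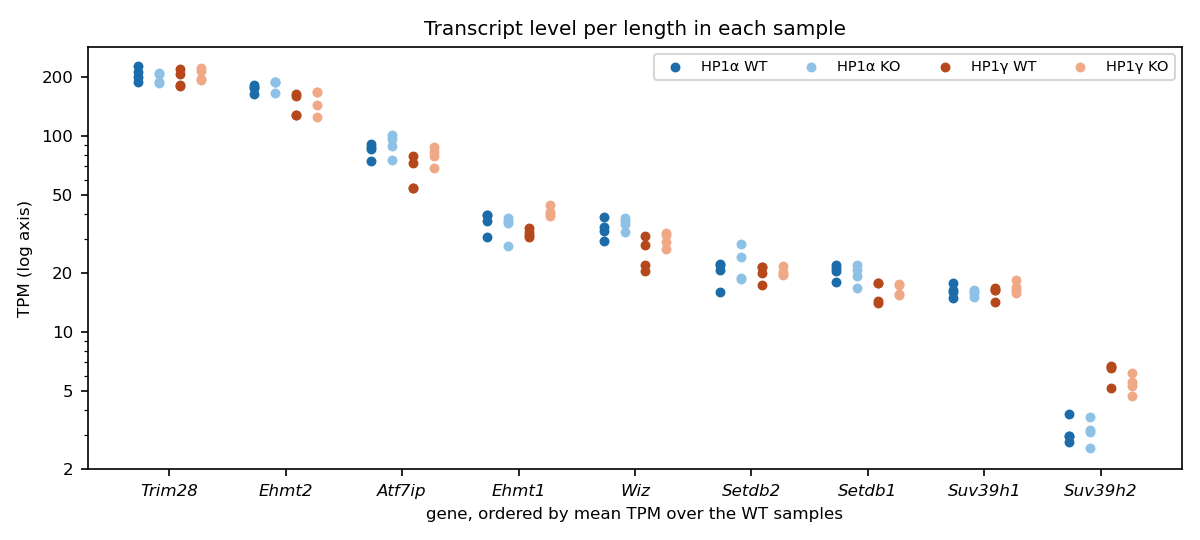
Transcript levels of the 9 genes in TPM, on a log axis, in each of the 16 samples; each point is 1 sample, colored by group, and genes are ordered by their mean over the 8 WT samples. Suv39h2 is the gene with the lowest level in every group, and its HP1γ samples lie above its HP1α samples.

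The first question was whether the loss of HP1α is accompanied by a change in the genes that write H3K9 methylation. For naive CD4+ T cells of both lines, the study reported no compensatory overexpression of H3K9 methyltransferases or TRIM28. It also compared the RNA of KO and WT memory cells of both lines, with a minimum fold change beside the adjusted p. For peripheral T cells of either line it reported no significant difference. Memory cells were examined here, gene by gene and without a minimum fold change. Of the 9 genes, 0 passed an adjusted p under 0.05 in HP1α KO against WT samples, and 0% of the 14881 genes tested did so. At an unadjusted p under 0.05, which 4.27% of all genes reached, the number was again 0 of 9 in edgeR, and DESeq2 called 0 of the 9 and 8 genes in all. No gene of the 9 had KO and WT samples that did not overlap, compared with 3.11% of all genes. The log2 fold changes lay between -0.06 and 0.09, with a median of -0.0053 over the 9 genes and of 0.0026 over all genes tested.

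In this line, Suv39h1 had 27.3 ± 0.769 CPM in KO samples against 27.6 ± 1.09 CPM in WT samples (SD, n = 4 each). Its log2 fold change was -0.02, with a 95% confidence interval from -0.15 to 0.11. Suv39h2 was at 4.80, 3.96, 6.03 and 4.84 CPM in KO and at 4.47, 4.10, 5.24 and 6.15 CPM in WT samples. These values overlapped widely. With 123 to 205 counts per sample, its interval was the widest of the 9, from -0.42 to 0.37 around a log2 fold change of -0.02. The 15 cell cycle genes measured beside it had a median log2 fold change of -0.31, all 15 had values below 0, and 0 of them passed the adjusted p.

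For Setdb1, HP1α KO samples had 60.3 ± 5.11 CPM and WT samples 62.9 ± 3.65 CPM (SD, n = 4 each), a log2 fold change of -0.06 with an interval from -0.22 to 0.10. Its paralog Setdb2, whose product is linked to the silencing of inflammatory genes in myeloid cells, had a mean of 27.3 CPM in both groups. The G9a and GLP genes had log2 fold changes of 0.06 for Ehmt2 (interval -0.05 to 0.16) and -0.0053 for Ehmt1 (interval -0.16 to 0.15). Among the cofactors, Trim28 and Atf7ip had log2 fold changes of 0.0084 and -0.0095. Wiz had the largest value of the 9, 0.09 (unadjusted p = 0.152, adjusted p = 0.946 with edgeR).

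In the HP1γ line, 0 of the 9 genes passed an adjusted p under 0.05 between KO and WT samples, against 49 (0.327%) of the 14975 genes tested. One gene, Ehmt1, reached an unadjusted p under 0.05, against 11.9% of all genes, and the same gene was the only 1 of the 9 whose KO and WT samples did not overlap, against 7.59% of all genes. With the replicate number as a block in the edgeR fit, 4 of the 9 (Ehmt1, Atf7ip, Wiz and Suv39h2) reached an unadjusted p under 0.05, against 16.4% of all genes. The median log2 fold change was -0.0054 over the 9 genes and 0.000495 over all genes tested, and 4 of them had higher and 5 lower fitted values in KO samples.

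Ehmt1 was at 68.2, 68.6, 76.0 and 66.3 CPM in HP1γ KO and at 64.6, 63.1, 65.0 and 64.6 CPM in WT samples. Every KO sample exceeded every WT sample, and the log2 fold change was 0.14 with an interval from 0.0056 to 0.27 (unadjusted p = 0.0427, adjusted p = 0.402 with edgeR). On the TPM scale the means were 41.1 ± 2.39 in KO and 32.0 ± 1.46 in WT samples (SD, n = 4 each), again without overlap, and limma on log2(TPM + 1) gave a larger log2 fold change of 0.35 that did not pass either (adjusted p = 0.142). The summed level of the erythroid transcripts Hbb-bs and Hba-a1 ranged from 50.1 to 708 CPM in these KO samples and from 28.04 to 314 CPM in WT samples, which overlap, and its part in the Ehmt1 values was not tested. Ehmt2, the partner of Ehmt1, was at 218, 245, 286 and 282 CPM in KO and at 249, 247, 266 and 289.9 CPM in WT samples. These groups overlapped widely, and the log2 fold change of Ehmt2 was -0.0054 with an interval from -0.21 to 0.20.

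Atf7ip was at 203, 229.7, 251 and 257 CPM in HP1γ KO and at 188, 168, 219 and 238 CPM in WT samples. The means were 235 ± 24.4 and 203 ± 31.4 CPM (SD, n = 4 each), the groups overlapped, and the log2 fold change of 0.23 (interval -0.02 to 0.49) did not pass the test (unadjusted p = 0.0670, adjusted p = 0.453 with edgeR). Suv39h2 was at 7.88, 8.96, 8.36 and 7.07 CPM in KO and at 10.5, 10.8, 9.88 and 7.84 CPM in WT samples. Its log2 fold change of -0.26 (interval -0.55 to 0.04) did not pass either (unadjusted p = 0.0790, adjusted p = 0.473 with edgeR). As in the HP1α line, all 15 cell cycle genes had values below 0, with a median log2 fold change of -0.18, and 0 of them passed the adjusted p.

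The other 5 genes had log2 fold changes between -0.06 and 0.12 in HP1γ KO against WT samples. Suv39h1 was at 29.4, 27.2, 26.5 and 26.6 CPM in KO and at 28.9, 28.9, 27.2 and 23.5 CPM in WT samples. These groups overlapped, and its log2 fold change was 0.04 with an interval from -0.15 to 0.22. Setdb1 and Setdb2 had values of -0.02 and -0.06, Trim28 one of -0.05 and Wiz one of 0.12. The interval of Wiz, from -0.11 to 0.35, was the widest of these 5.

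**Figure D2:**
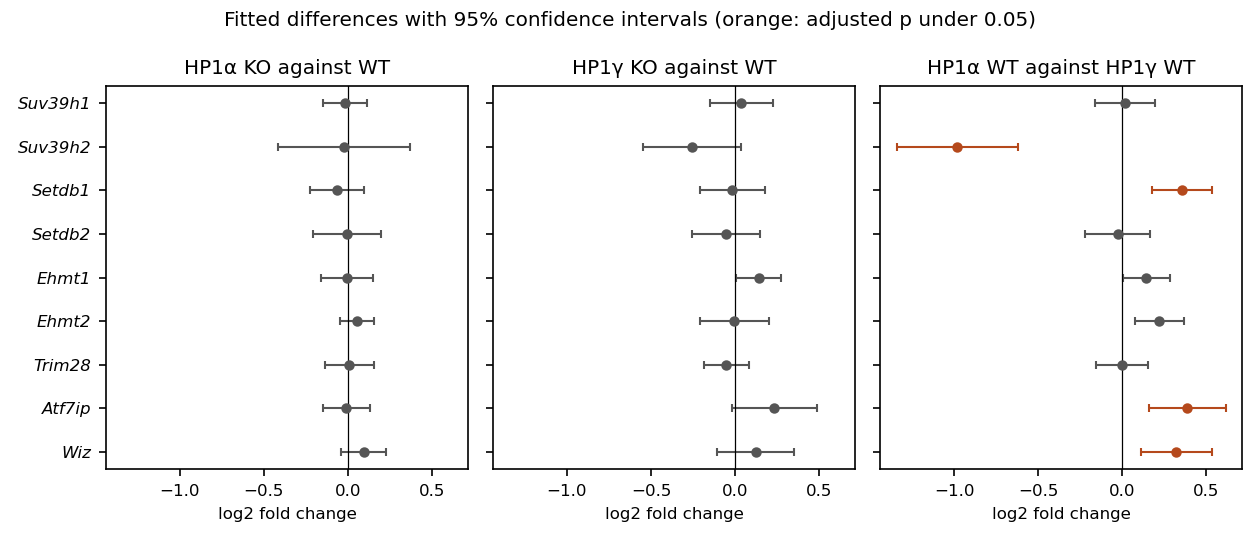
Log2 fold changes of the 9 genes with their 95% confidence intervals from edgeR in HP1α KO against WT, HP1γ KO against WT and HP1α WT against HP1γ WT samples (4 samples a group); orange marks an adjusted p under 0.05. The orange points are all in the comparison of the WT groups, where Suv39h2 is to the left of 0 and Setdb1, Atf7ip and Wiz are to the right.

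The effects of the 2 knockouts were then compared with each other in a fit of all 16 samples. The difference between them passed the adjusted p for 0 of the 9 genes and for 8 (0.0507%) of 15776 genes, and an unadjusted p under 0.05 was reached by 0 of the 9 and by 9.58% of all genes. The smallest unadjusted p of the 9 belonged to Atf7ip, with 0.106 and a difference of -0.23 on the log2 scale, HP1α minus HP1γ (interval -0.52 to 0.06, adjusted p = 0.625 in the edgeR test). The difference for Suv39h2 was 0.24, with an interval from -0.22 to 0.70.

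A further comparison was that of the WT groups of both lines, which carry no knockout. Setdb1, Atf7ip and Wiz were higher and Suv39h2 was lower in WT samples of the HP1α line than in those of the HP1γ line at an adjusted p under 0.05. These 4 of the 9 genes compare with 1896 (12.8%) of the 14804 genes tested. At an unadjusted p under 0.05 there were 6 of the 9, against 29.9% of all genes, and 5 had groups that did not overlap, against 19.6%. The median log2 difference was 0.14 over the 9 genes and 0.015 over all genes tested.

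Suv39h2 was at 4.47, 4.10, 5.24 and 6.15 CPM in HP1α WT and at 10.5, 10.8, 9.88 and 7.84 CPM in HP1γ WT samples. All 4 HP1α samples were thus below all 4 HP1γ samples. Means of 4.99 ± 0.905 and 9.77 ± 1.35 CPM (SD, n = 4 each) gave a log2 difference of -0.98 (standard error 0.163, adjusted p = 0.00655 in the edgeR test), or 1.97-fold more in the HP1γ line. Its paralog Suv39h1, which lies on the X chromosome, had means of 27.6 ± 1.09 and 27.1 ± 2.54 CPM and a log2 difference of 0.01 (interval -0.16 to 0.19). The summed level of the 15 cell cycle genes overlapped between the WT groups (790 to 1087 CPM in HP1α and 914 to 1106 CPM in HP1γ WT). Their median log2 difference was 0.27, with 11 genes higher and 4 lower in the HP1α line. The replication clamp gene Pcna was the only 1 of the 15 called, against 12.8% of all genes. Unlike most of the list, Pcna was lower in the HP1α line (log2 difference -0.33, adjusted p = 0.0191 with edgeR).

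Setdb1 was at 64.95, 66.0, 57.8 and 62.9 CPM in HP1α WT and at 45.7, 43.9, 51.9 and 53.4 CPM in HP1γ WT samples. The groups did not overlap, and the log2 difference was 0.36 (standard error 0.0815, adjusted p = 0.0214 in the edgeR test). Atf7ip, whose product accompanies SETDB1, was at 272, 273, 246 and 280.5 CPM in HP1α WT and at 188, 168, 219 and 238 CPM in HP1γ WT samples. These values did not overlap either, with a log2 difference of 0.39 (standard error 0.103, adjusted p = 0.0358 in the edgeR test). Setdb2 did not follow Setdb1: its means were 27.3 ± 2.09 and 27.6 ± 2.48 CPM, and its log2 difference was -0.03 with an interval from -0.22 to 0.16. For Trim28, which recruits SETDB1, the groups had means of 220.5 ± 15.6 and 219 ± 10.1 CPM.

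Wiz was at 82.6, 74.9, 75.0 and 73.3 CPM in HP1α WT and at 52.6, 55.2, 66.8 and 68.2 CPM in HP1γ WT samples. All HP1α samples were above all HP1γ samples, and the log2 difference of 0.32 (standard error 0.0951) had an adjusted p of 0.04999 in the edgeR test, just under the threshold. Ehmt2, whose product WIZ stabilizes, was at 314, 306, 306 and 307 CPM in HP1α WT and at 249, 247, 266 and 289.9 CPM in HP1γ WT samples. It did not overlap either and had a log2 difference of 0.22, but its adjusted p of 0.0533 in the edgeR test was above the threshold. Ehmt1 had a log2 difference of 0.14 with an adjusted p of 0.161.

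The number of calls between the WT groups depended on single samples. In the HP1γ line, Setdb1, Ehmt2, Atf7ip and Wiz were lower in replicates 1 and 2 than in replicates 3 and 4, in WT and in KO samples alike. When each WT sample was left out in turn, between 1 and 5 of the 9 genes were called. The number fell to 1 without HP1α WT replicate 1, HP1α WT replicate 2, HP1γ WT replicate 1 or HP1γ WT replicate 2, and to 2 without HP1α WT replicate 4. Suv39h2 was called in all 8 of these fits. Without HP1γ WT replicates 1 and 2 together, a comparison chosen after seeing the data, 0 of the 9 genes and 134 of all genes were called. The log2 differences were -0.84 for Suv39h2, 0.25 for Setdb1, 0.22 for Atf7ip and 0.17 for Wiz. The omitted samples had the lowest Setdb1, Atf7ip and Wiz and the highest Suv39h2 levels of their group, in which only replicates 3 and 4 remained. Smaller differences and fewer calls are thus built into this comparison.

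Levels of cell type markers were set beside these values. Ccr7, a marker of naive cells, was at 139 to 229 CPM in HP1α WT and at 208 to 379 CPM in HP1γ WT samples, with means of 189 and 286 CPM and overlapping ranges. Within the HP1γ line, Ccr7 was at 321, 379, 235 and 208 CPM in HP1γ WT and at 303, 269, 228 and 187 CPM in HP1γ KO samples, so that it was highest in the replicates in which Setdb1, Ehmt2, Atf7ip and Wiz were lowest. The memory marker Cd44 was at 258 to 299 CPM in HP1α WT and at 336 to 377 CPM in HP1γ WT samples, with no overlap. The summed level of the 4 T cell markers was 2441 to 2561 and 2301 to 2616 CPM in these groups. The part of these differences in the levels of the 9 genes was not tested.

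**Figure D3:**
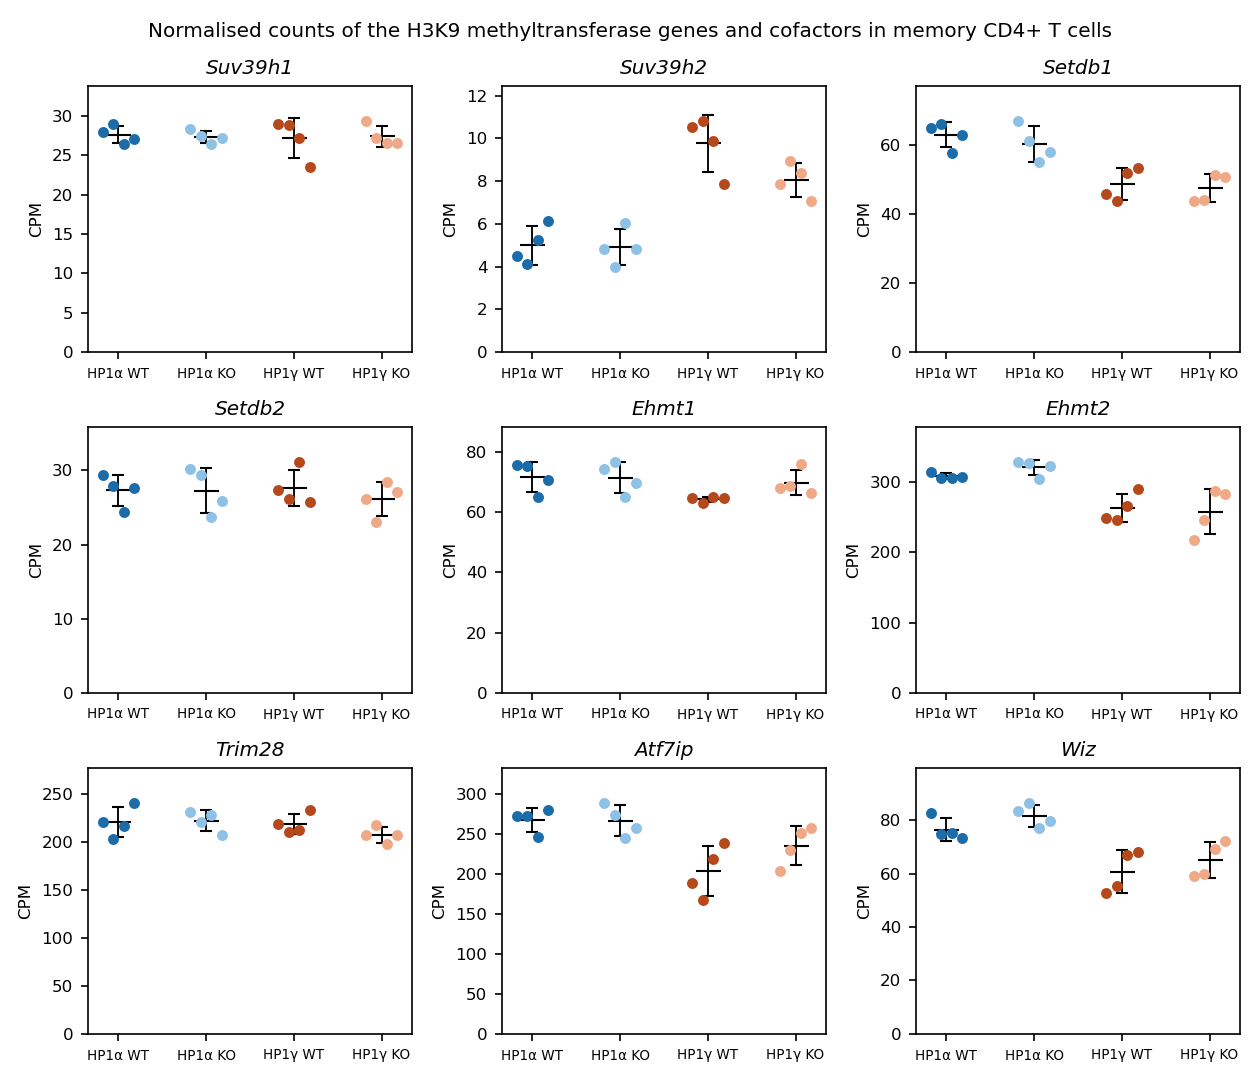
Normalized counts (CPM) of the 9 genes in the 4 groups; each point is 1 sample, with replicates 1 to 4 from left to right, and bars give the mean and SD (n = 4). The HP1α samples of Setdb1 lie between 55.1 and 67.0 CPM and its HP1γ samples between 43.8 and 53.4 CPM, whereas Suv39h1 stays between 23.5 and 29.4 CPM in all groups.

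The KO samples of both lines, which share no sample with the WT comparison, were set against each other as well, a comparison chosen after seeing the data. Here 4 of the 9 genes were called, against 32.8% of the 15020 genes tested. Suv39h2 was again lower in the HP1α line, with a log2 difference of -0.74 (adjusted p = 0.00570 in the edgeR test). Setdb1 and Wiz were again higher, with 0.32 and 0.30 (adjusted p = 0.0122 for both genes in the edgeR test). The remaining call was Ehmt2, with 0.29 (adjusted p = 0.0216 in the edgeR test), whereas Atf7ip had 0.16 and was not called (adjusted p = 0.153 in the edgeR test). Suv39h1, Setdb2, Ehmt1 and Trim28 had log2 differences between -0.03 and 0.07.

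**Figure D4:**
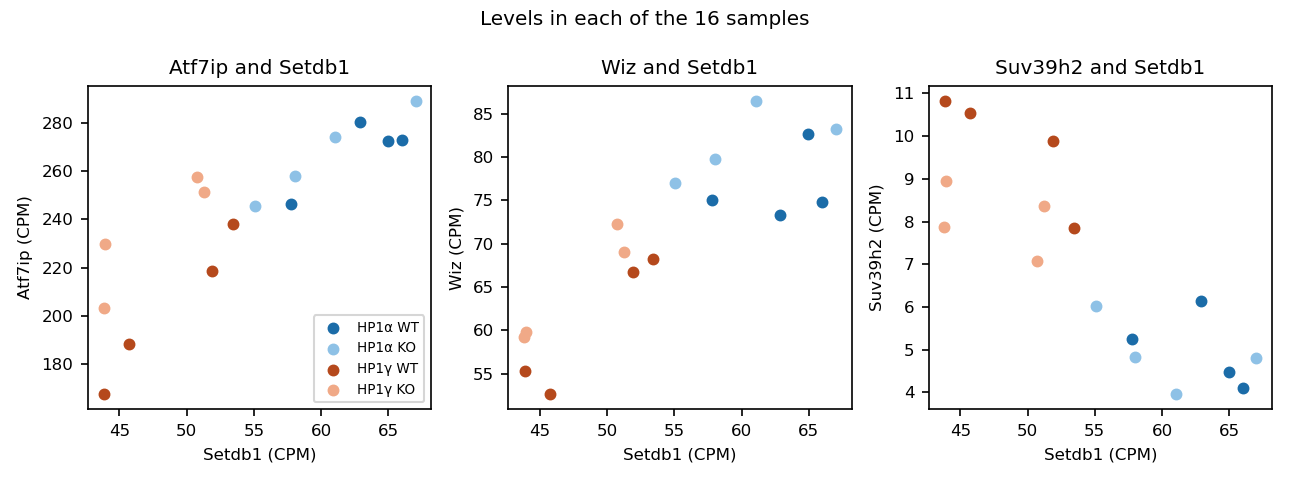
Levels of Atf7ip, Wiz and Suv39h2 against that of Setdb1, all in CPM, in the 16 samples; each point is 1 sample, colored by group, and the axes do not start at 0. Samples of the HP1γ line lie at Setdb1 levels of at most 53.4 CPM and those of the HP1α line at 55.1 CPM or more, and all HP1α samples lie below all HP1γ samples for Suv39h2.

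Levels per length were also set against each other within each sample, as 4 ratios chosen with the levels known. In TPM, Suv39h1 exceeded Suv39h2 by 5.30 ± 0.939 times in HP1α WT and by 5.18 ± 0.876 times in HP1α KO samples, but by 2.56 ± 0.128 times in HP1γ WT and 3.14 ± 0.390 times in HP1γ KO samples (SD, n = 4 each). The ratio of Setdb2 to Setdb1 was 0.990 ± 0.0667 in HP1α WT and 1.26 ± 0.0850 in HP1γ WT samples. The ratio of Atf7ip to Setdb1 was 4.04 ± 0.299 in HP1γ WT and 4.84 ± 0.398 in HP1γ KO samples, with the lowest KO and the highest WT sample both at 4.44 after rounding. The ratio of Ehmt2 to Ehmt1 was 4.53 ± 0.590 in HP1γ WT and 3.69 ± 0.538 in HP1γ KO samples, and these overlapped. Over 12 comparisons (4 ratios, KO against WT in each line and WT between lines), 4 reached the smallest p that 4 samples against 4 allow (exact permutation test, two-sided, p = 0.0286). These were the ratio of Suv39h1 to Suv39h2 between WT groups and between HP1γ KO and WT, that of Setdb2 to Setdb1 between WT groups, and that of Atf7ip to Setdb1 between HP1γ KO and WT. None passed the adjustment over the 12 comparisons (adjusted p = 0.0857 for these 4 exact tests). With 4 samples against 4, none could have passed unless more of the 12 comparisons had reached the smallest p, whatever the size of the differences.

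**Figure D5:**
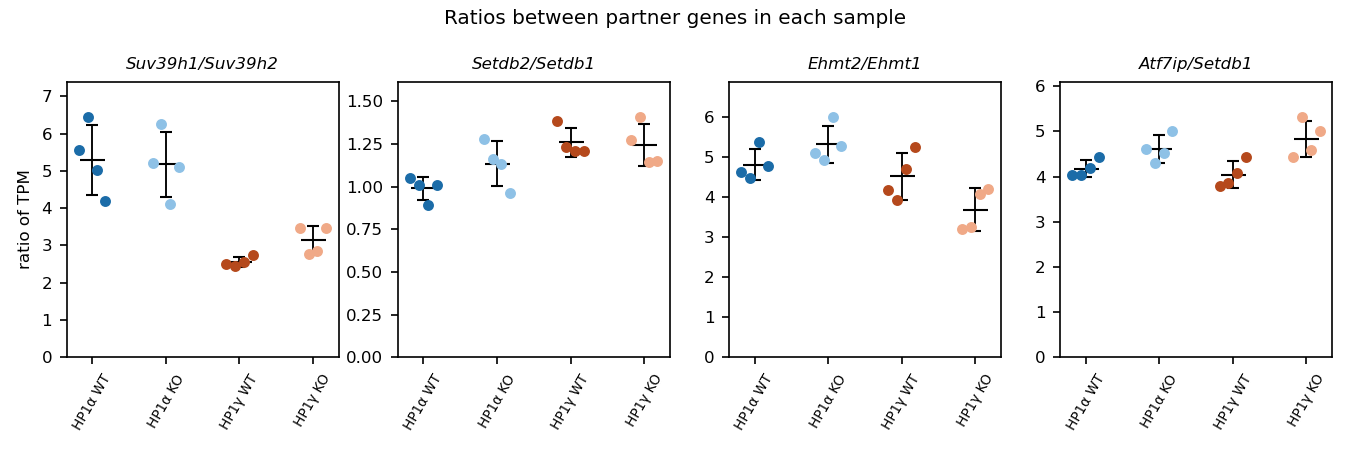
Ratios of TPM between partner genes within each sample; points are samples in the 4 groups, with replicates 1 to 4 from left to right, and bars give the mean and SD (n = 4). The ratio of Suv39h1 to Suv39h2 lies between 4.11 and 6.43 in the HP1α line and between 2.44 and 3.48 in the HP1γ line.

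A list of 31 other genes of H3K9 methylation was examined in the same fits, of which 29 could be tested. It held 7 readers of the mark, 3 genes of the HUSH complex, 10 further methyltransferases and cofactors, and 11 demethylases. In HP1α KO against WT samples, 0 of the 29 were called. In HP1γ KO against WT samples, 1 was called higher and 1 lower, where 0.327% of all genes were called. The higher one was Mbd1, a methyl-CpG binding protein that associates with ATF7IP and SETDB1, at 137 ± 6.96 CPM in KO and 68.7 ± 2.42 CPM in WT samples (SD, n = 4 each; log2 fold change 1.02, adjusted p = 4.70e-05 in the edgeR test). The lower one was the targeted gene Cbx3. The list held this gene and was chosen with earlier results of these data known, so these calls cannot be read as an excess over the share of all genes. Mbd1 was also the only gene of the list called for the difference between the knockout effects.

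Between the WT groups, 1 of the 29 was called higher and 3 lower in the HP1α line, a share near the 12.8% of all genes called in this comparison. Jmjd1c, which encodes a protein of the H3K9 demethylase family, had the largest of these differences, at 291 ± 12.1 CPM in HP1α WT and 464 ± 47.6 CPM in HP1γ WT samples (log2 difference -0.68, adjusted p = 0.00198 in the edgeR test). Prdm2, a methyltransferase gene, and Zfp644, whose product works with WIZ in the G9a complex, were lower as well, with log2 differences of -0.34 and -0.29 (adjusted p = 0.0113 and 0.0376 in the edgeR test). Cbx1, which encodes HP1β, was higher with 0.41 (adjusted p = 0.0199 in the edgeR test). The median over the 29 was 0.11. Zfp644 and Wiz, genes of the same complex, thus differed in opposite directions.

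Positions and overlaps of the called genes bear on how their reads were assigned. Suv39h2 lies on chromosome 2 of GRCm39 from 3455774 to 3476146. Of the 10082 bases of its exons, 5074 overlap those of Dclre1c on the opposite strand. Dclre1c itself had a log2 difference of -0.23 between the WT groups (adjusted p = 0.184 in the edgeR test). In HP1γ KO against WT samples, Dclre1c had a log2 fold change of 0.36 (unadjusted p = 0.0202, adjusted p = 0.359 with edgeR). That of Suv39h2 was -0.26 there, and the part of the overlap in these values was not tested. Setdb1 lies on chromosome 3 from 95229399 to 95264541 and shares 1309 exonic bases with Cers2 on the opposite strand, which had a log2 difference of 0.15 (adjusted p = 0.120 in the edgeR test). Setdb1 also shares a stretch of 1145 bases, at 98% identity or more, with a transcript annotated as Gm4349, between which the counting could split reads. Atf7ip (chromosome 6, from 136483165 to 136587860) and Wiz (chromosome 17, from 32572090 to 32608413) overlapped no exon of a protein-coding gene on the opposite strand and shared no such stretch, although non-coding transcripts are annotated opposite to both. The libraries were made with a stranded kit, but whether the counting used the strand is not given in the sources used here, and without it reads of overlapping genes cannot be told apart.

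Genes near the called ones were counted for the same comparison of WT groups, in which 12.8% of all genes were called. Within 1 Mb, 2 of 8 tested genes near Suv39h2 were called, Nmt2 and Fam107b, both lower in the HP1α line as was Suv39h2 (named after their values were seen). Near Setdb1, 11 of 74 tested genes were called, 6 of them in the direction of Setdb1. Near Wiz there were 4 of 36, which were Akap8l, Sik1, Zfp472 and A530088E08Rik, and near Atf7ip 1 of 10, the predicted gene Gm44401. These genes were also named after their values were seen.

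The genes most similar to Setdb1 and to Suv39h1 across all 16 samples were looked up among 15776 genes, with Pearson's r of log2 CPM as the measure. For Setdb1, they were Rcor3 (r = 0.98), Ttf1 (r = 0.98) and Arhgap30 (r = 0.97). For Suv39h1, whose level hardly varied, they were the predicted genes Gm42763 (r = 0.86), Gm37176 (r = 0.83) and Gm10752 (r = 0.79). The samples of a line share its background and these values are descriptions only.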

How the data were processed

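RNA-Seq of 16 samples of splenic memory CD4+ T cells was used, and titles gave the line, genotype and replicate of each. The treatment label names a cell transfer that the study does not describe for memory cells, so it was ignored. The study left out 1 RNA-Seq sample of its experiments for quality, and the labels do not say whether it belongs to these samples. After trimming, the authors used STAR and Salmon with the mouse genome GRCm39 and an Ensembl annotation. The deposited estimated counts are raw per-gene values, of which 11.6% were not whole. The deposited TPM were scaled by the authors for length and to a common total and keep no depth.

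Estimated counts were rounded and tested with edgeR 4.0.16 in R 4.3.3 (TMM normalization, filterByExpr with a minimum count of 10, glmQLFit and glmQLFTest on 8 samples, or 16 for the difference between knockout effects), with Benjamini-Hochberg adjustment over all genes tested and called at an adjusted p under 0.05. CPM were TMM-normalized over the 16 samples. Exact permutation tests were two-sided. The scripts were tested on simulated counts. Alternatives were RLE factors, no filter, DESeq2 1.42.0, limma 3.58.1 on log2(TPM + 1) and log2(TPM + 0.1), a replicate block, all 16 samples in one fit and the omission of each sample. Shared sequence was searched with blastn 2.17.0 (at least 150 bases). No 2 replicates of a group were alike within counting noise. All 9 genes are described, genes of the related list are named where called, and the 3 most similar genes are named for Setdb1 and Suv39h1. Some marker results and a further surface marker of the sort are not reported here. The members and lists were chosen with earlier results of these data known.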

Additional observations from a re-analysis of the deposited data

Results flagged for a closer look

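The ratio of Setdb2 to Setdb1 in TPM was 1.39 in HP1γ WT replicate 1 and between 1.21 and 1.23 in the other 3 HP1γ WT samples. Its distance to the nearest of the others, divided by the range of the group, was 0.850, above Dixon's 95% critical value for 4 samples. It was the only 1 of 52 groups of 4 values examined (CPM of the 9 genes and the 4 ratios) to exceed that value, and chance alone exceeds it in about 1 of 20 groups.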

How the results depend on the processing

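Of the 9 genes, 0 were called in HP1α KO, in HP1γ KO and for the difference between knockout effects under every alternative run, whereas the calls between WT groups depended on the alternative. With the replicate block, 1 of the 9 genes and 577 genes in all were called between WT groups, and Setdb1, Atf7ip and Wiz had adjusted p of 0.0712, 0.0668 and 0.104 by edgeR. In HP1γ KO the block changed no call, but at an unadjusted p under 0.05 it gave 4 of the 9 (Ehmt1, Atf7ip, Wiz and Suv39h2) in place of 1, and 16.4% of all genes in place of 11.9%. Replicate numbers were not treated as pairs in the main fits, and the labels do not name pairs. Correlations of same-numbered samples were 0.09 to 0.23 in the HP1α line, 0.00 to 0.15 in the HP1γ line and -0.20 to -0.07 between WT groups. In the same order, 3, 1 and 0 of 4 numbers matched best with themselves. These values do not settle whether same-numbered samples of a line were paired. With limma on log2(TPM + 1) and log2(TPM + 0.1), 1 of the 9 was called between WT groups with either pseudocount, and 1175 and 1210 genes in all. DESeq2 called 8 genes in HP1α KO, 265 in HP1γ KO and 80 for the difference between knockout effects. Without a filter these were 1 in HP1α KO and 14 for the difference, which became 13 with the block and 4 with TPM + 0.1. TPM gave 1 gene in HP1α KO with either pseudocount and 28 and 32 in HP1γ KO, and the fit of all 16 samples gave 96 there. Of the comparisons chosen after seeing the data, the KO samples of both lines gave 4921 genes, and leaving out HP1γ WT replicates 1 and 2 gave 0 of the 9 and 134 genes in all.

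Leaving out 1 sample gave 0 to 3 genes in HP1α KO, 30 to 49 in HP1γ KO, 573 to 2185 between WT groups, with 1 to 5 of the 9, and 7 to 12 for the difference. Over these fits Suv39h2 ranged from -1.10 to -0.89 between WT groups.

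Signs turned only for values that were not called. With TPM + 1 and TPM + 0.1, HP1α KO values became 0.0055 and 0.0069 for Suv39h2, 0.13 and 0.14 for Setdb2, -0.063 for Trim28, and 0.088 and 0.089 for Atf7ip. HP1γ KO values became 0.043 and 0.046 for Setdb1, 0.023 and 0.024 for Setdb2, 0.062 for Ehmt2 and 0.067 for Trim28. The difference between effects became -0.0026 for Ehmt2 and -0.13 for Trim28, and Setdb2 became 0.0060 and 0.0059 between WT groups. There, Trim28 became -0.0024 with RLE factors and DESeq2, -0.0016 with the block and -0.026 without HP1γ WT replicates 1 and 2. In KO samples, Suv39h1 had -0.028 and Setdb2 0.037. Ranges without 1 sample that crossed 0 were, in HP1α KO, -0.049 to 0.024 for Atf7ip, -0.046 to 0.032 for Ehmt1, -0.054 to 0.054 for Setdb2, -0.034 to 0.0037 for Suv39h1, -0.14 to 0.093 for Suv39h2 and -0.030 to 0.055 for Trim28. In HP1γ KO they were -0.058 to 0.063 for Ehmt2, -0.067 to 0.022 for Setdb1, -0.097 to 0.0095 for Setdb2 and -0.034 to 0.068 for Suv39h1. Between WT groups they were -0.060 to 0.037 for Setdb2, -0.047 to 0.049 for Suv39h1 and -0.045 to 0.046 for Trim28, and for the difference -0.090 to 0.014 for Setdb1, -0.078 to 0.018 for Suv39h1 and -0.081 to 0.042 for Wiz. The cause of these changes was not tested. Suv39h2, with as few as 123 counts, had the widest intervals.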
